A study of Sicyos edulis with 9 samples.

Results

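Fruits of chayote (Sicyos edulis) were sequenced at 3 stages of storage, and 200 unigenes whose level rose in both intervals are described here, chosen from 57814 unigenes in all. A unigene is a transcript assembled from the reads, which carries a Trinity identifier in the files and no gene name. S1 is the optimal harvest stage, S2 is 15 days after storage and S3 is 30 days after storage. Each stage has 3 libraries, given as biological replicates of wild-type fruit that differ in no treatment other than the time kept in plastic containers. Whether the sampled fruit included the seed, and how many fruits went into a library, was not found in the labels or methods. The label of fruit was not checked against marker genes, since the files pair no identifiers with names.

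The members were chosen from the values themselves. FPKM, a level scaled for the length of the unigene and the size of the library, was taken as log2(FPKM + 1), and the first step is the mean of S2 minus that of S1, the second the mean of S3 minus that of S2. A unigene qualified when every S1 library lay below every S2 library and every S2 library below every S3 library, when its mean over the 9 libraries was under 800 FPKM, and when it was not among the 165 unigenes that the study lists as flavonoid enzymes or transcription factors. Of the 1157 that qualified, the 200 with the largest smaller step are the members. The steps therefore chose the members, and they are given below as a description with no test.

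A harvested fruit goes on living on its own reserves. It respires, loses water, remodels its cell walls and in time senesces, and these changes go with the turning on and off of large sets of genes. Chayote holds a single seed that can sprout inside the stored fruit. Flavonoids are made from phenylalanine, and factors of the MYB, bHLH, WRKY, bZIP and Dof families bind DNA and set the level of their target genes, those of flavonoid synthesis among them.

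Library totals lay between 801066 and 914583 FPKM, with the 3 lowest in S3. The files hold no read counts per unigene. Relative to S1 replicate 2, depth was estimated at 0.714 to 1.26 from the steps that 1 read makes between low values, and this need not equal the ratio of the mapped reads that the study lists for each library, which were not used here. The spread between replicates was the only error that could be given. The p-values below set a difference between stages against the spread between these libraries, which the fit shares over the stages. The sources used here do not say if all stages went through sequencing in 1 run, so a batch and a stage cannot be told apart. Every rise given here rests on the stage in the labels. In a study list of flavonoid genes without identifiers, 89 genes matched exactly 1 unigene by their 9 values, and 19 of these stand under other stages in that list than in the files. In the study's 2 lists with identifiers, 95 of 95 entries of stage means and 144 of 145 entries of 9 values equal the files under the same stages, within 0.02 FPKM. Which stages are right for the 19 was not tested.

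The full rising order held for 1168 unigenes, which is 2.02% of all, and for 3.51% of the 30201 unigenes expressed highly enough to be tested. The full falling order held for 1730. Of the rising ones, 9 were among the listed enzymes and factors and 2 had a mean of at least 800 FPKM. One of these 2, TRINITY_DN8417_c0_g2, had steps of 0.82 and 1.09 and would have been a member without the upper limit. It had 930, 626 and 602 FPKM in the S1 libraries, 1314, 1292 and 1132 in S2 and 2050, 2609 and 3455 in S3. The last member inside was TRINITY_DN9105_c0_g1, with 9.22, 5.11 and 5.51 FPKM in S1, 11.1, 13.5 and 10 in S2 and 34.6, 36.7 and 35.4 in S3. Its smaller step was 0.748, against 0.749 for TRINITY_DN3801_c0_g1, next inside, and 0.747 for TRINITY_DN8339_c0_g1 and for TRINITY_DN10488_c1_g1, the first outside. The members thus end in a continuous run of unigenes and are not a group set apart. Without S1 replicate 1, 1994 unigenes qualified and 131 of the 200 members were chosen again, the fewest for any library left out.

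The members were minor transcripts at harvest and held a growing part of the FPKM total. Added up, they took 0.193, 0.159 and 0.167% of the FPKM total in the S1 libraries, 0.401, 0.43 and 0.408% in S2 and 1.5, 1.51 and 1.36% in S3. No library of one stage overlapped the next in this share, as the choice of the members fixes. In RNA of whole tissue, more cells of a type and more RNA per cell cannot be told apart. In S1 the median member had 1.75 to 2.17 FPKM, depending on the library. It had 6.07 to 6.26 FPKM in S2 and 19.7 to 23.0 in S3. Every member was above 0 in all S2 and S3 libraries, while in S1 the libraries held 175 to 182 of them. All 200 reached 1 FPKM in 3 or more libraries and entered the fit described below.

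**Figure D1:**
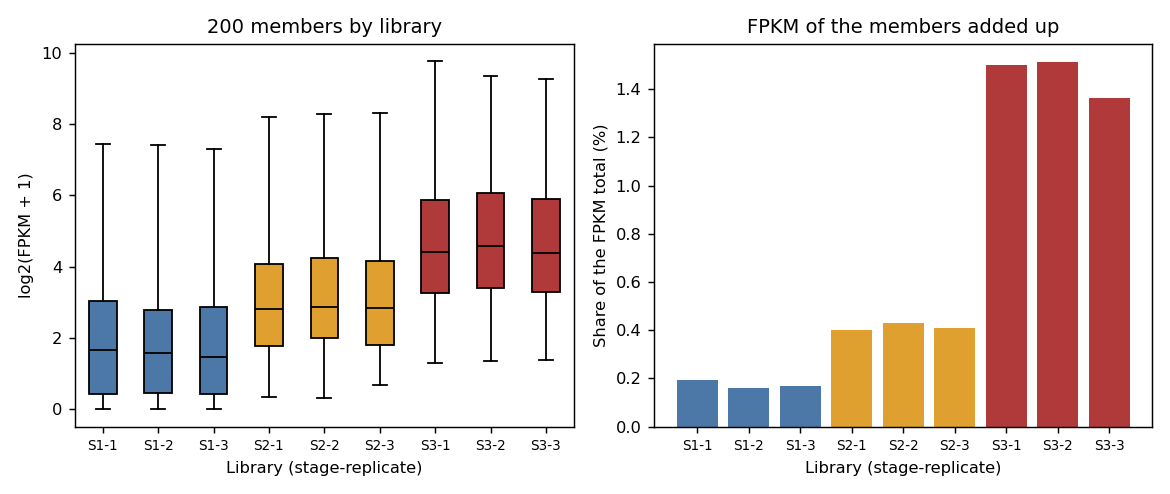
Left, log2(FPKM + 1) of the 200 members in each of 9 libraries, as boxes from the first to the third quartile with the median as a line and whiskers to the lowest and highest member, and right, the FPKM of the members added up, as a percentage of the library's FPKM total. The share goes from 0.159 to 0.193% in S1 to 1.36 to 1.51% in S3, and the boxes move up at both steps.

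By level at harvest the members fell into 3 groups. Of the 200, 76 averaged under 1 FPKM in S1, with a median of 0.247 there, 2.18 in S2 and 7.72 in S3. Another 90 averaged 1 to under 10 FPKM in S1, with medians of 3.16, 8.07 and 29.4 through the stages. The remaining 34 had at least 10 FPKM at harvest and medians of 20.9, 42.3 and 127. The median steps on the log2 scale were 1.18 and 1.37 in the lowest, 1.07 and 1.30 in the middle and 1.10 and 1.25 in the highest. Differences of log2(FPKM + 1) understate the change of low unigenes, so the steps of the lowest group are compressed. At S3, 33 members averaged at least 100 FPKM, against 7 at S2 and 2 at S1.

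The second step was the larger one in 137 members, and the first in 63. The first step had a median of 1.10 and a range of 0.748 to 3.69 on the log2 scale, and the second a median of 1.34 and a range of 0.753 to 4.55. The second step was the larger in 68.5% of the members and in 69.8% of all 1157 qualifying unigenes. The steps were within 0.25 of each other in 64 members. The second exceeded the first by over 1 in 35 members, and the first exceeded the second by over 1 in 11. From S1 to S3 the difference was 1.57 to 7.86 with a median of 2.54, and it was at least 4 in 24 members. In the 124 members with at least 1 FPKM at harvest, the mean of S3 was 3.12 to 124 times that of S1, with a median of 6.81, and 36 of them passed 10-fold.

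**Figure D2:**
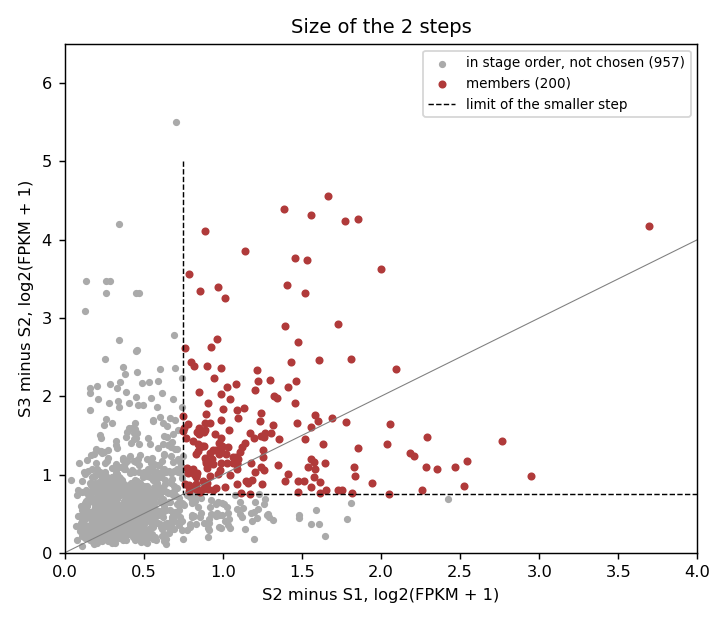
First step (S2 minus S1) against second step (S3 minus S2), both in log2(FPKM + 1), for the 1157 qualifying unigenes, where members are red, the others grey, the dashed line is the smaller step of the last member (0.748) and the thin line marks equal steps. The members continue the grey cloud without a gap, and 137 of them lie above the line of equal steps.

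TRINITY_DN5355_c0_g2 had the largest first step and the largest smaller step of the members. It is listed at 0 in S1 replicates 1 and 2 and had 0.73 FPKM in replicate 3, then 15.5, 16.7 and 11.8 in S2 and 347, 230 and 268 in S3. Its steps were 3.69 and 4.17, and the next largest smaller step was 2.09. That next one, TRINITY_DN29281_c0_g1, had 1.13, 0.26 and 0.33 FPKM in S1, 5.65, 6.06 and 4.91 in S2 and 36.1, 29.8 and 30.7 in S3. Its libraries kept close together within S2 and within S3, so that the stages lay far apart against their spread.

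Others of the largest steps varied more between libraries of one stage. TRINITY_DN10855_c0_g9 had 0.16, 0.74 and 0.22 FPKM in S1, 3.86, 7.39 and 2.84 in S2 and 12.9, 115 and 181 in S3. TRINITY_DN1484_c0_g1 had 0.47, 0.06 and 0.21 FPKM in S1, 3.08, 4.76 and 2.79 in S2 and 154, 69.5 and 56.1 in S3. Both had 1 S3 library apart from the others, but they differed in which S3 library was high, since replicate 1 was the lowest for the first and the highest for the second. TRINITY_DN316_c0_g1 had 1.05, 1.46 and 0.82 FPKM in S1, 6.43, 6.46 and 6.09 in S2 and 28.8, 40.5 and 53.1 in S3. The S2 libraries of this unigene lay close together, and its S3 libraries spread more.

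Late and large second steps were shared by 3 further members with the largest differences from S1 to S3. TRINITY_DN32283_c0_g1 had 2.5, 0.55 and 0.72 FPKM in S1, 5.97, 6.56 and 4.63 in S2 and 150, 148 and 169 in S3. TRINITY_DN15492_c0_g1 had 3.59, 0.12 and 1.13, then 6.26, 7.36 and 6.2, then 132, 150 and 145 FPKM. TRINITY_DN657_c0_g1 had 4.09, 1.69 and 0.96 FPKM in S1, 8.44, 7.86 and 7.2 in S2 and 129, 253 and 162 in S3. In all 3 the S1 libraries differed among themselves more, on a ratio scale, than those of S2, and S1 replicate 1 was the highest of its stage.

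The most abundant members at S3 already had 42.9 to 174 FPKM in the libraries of harvest. TRINITY_DN12610_c0_g1 had 138, 117 and 129 FPKM in S1, 223, 221 and 204 in S2 and 864, 582 and 551 in S3. TRINITY_DN2439_c0_g1 had 174, 169 and 155 FPKM in S1, 280, 301 and 270 in S2 and 653, 539 and 609 in S3. In both, the S1 and S2 libraries kept close to their stage mean, while S3 replicate 1 stood above the other S3 libraries. TRINITY_DN324_c0_g1 had 84.8, 42.9 and 74.3 FPKM in S1, 213, 187 and 209 in S2 and 431, 652 and 542 in S3. TRINITY_DN3267_c0_g1 had 116, 80.8 and 95.9, then 290, 308 and 317, then 547, 515 and 531 FPKM. TRINITY_DN7615_c0_g1 had 92.4, 62.1 and 77.1 FPKM in S1, 149, 143 and 185 in S2 and 598, 465 and 369 in S3. These 5 together made up 33.5 to 36.1% of the members' FPKM in S1 and 22.7 to 25.8% in S3.

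**Figure D3:**
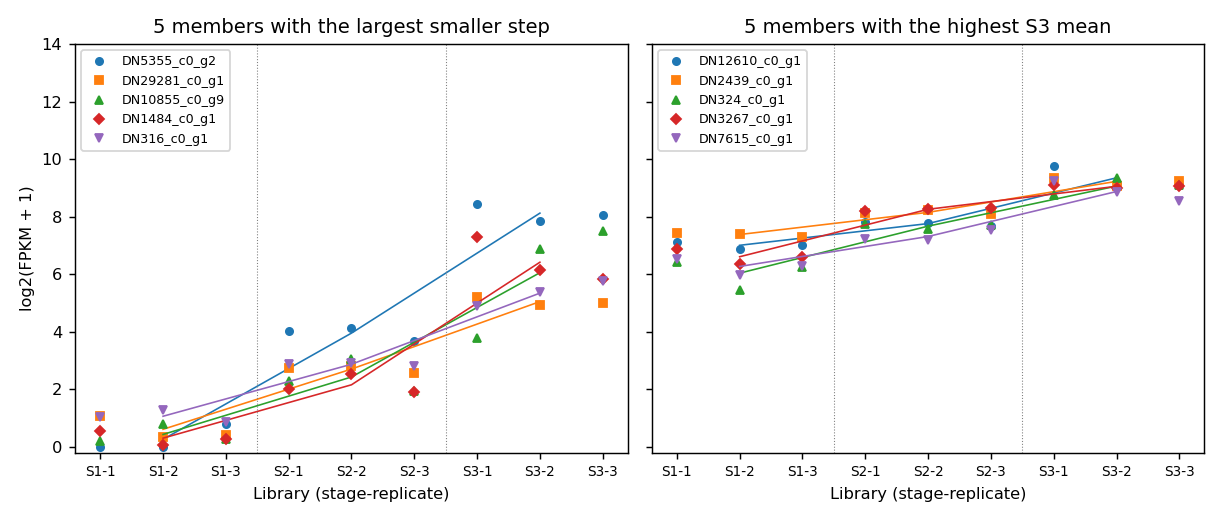
log2(FPKM + 1) in each of 9 libraries for the 5 members with the largest smaller step (left) and the 5 with the highest S3 mean (right), where points are libraries, lines join the stage means and dotted lines part the stages. The left members have at most 1.46 FPKM in S1 and TRINITY_DN5355_c0_g2 ends at 230 to 347 FPKM, while the right members start at 42.9 to 174 FPKM and S3 replicate 1 of TRINITY_DN10855_c0_g9 lies far below its other S3 libraries.

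Of the 200 members, 13 are listed at 0 in all S1 libraries, and 31 in at least 1 of them. The 13 had 0.24 to 5.17 FPKM in S2 libraries and 1.44 to 127 in S3. The most abundant of them at S3, TRINITY_DN8632_c0_g1, was singled out after its values were seen and had 0.55, 5.17 and 1.15 FPKM in S2 and 127, 17.6 and 20.7 in S3. No fold is given for these against S1, since the files give no counts from which a lower limit could be taken.

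The margin between the libraries of one stage and those of the next differed between members. Between the highest S1 and the lowest S2 library the gap had a median of 0.63 on the log2 scale and was under 0.1 in 9 members. Between the highest S2 and the lowest S3 library the median gap was 0.74, and 4 members had under 0.1. Both gaps were at least 1 in 14 members. Over the members, the median SD of log2(FPKM + 1) within S1, S2 and S3 was 0.28, 0.21 and 0.32, and over all 30201 unigenes tested it was 0.30, 0.15 and 0.24.

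The library that was highest or lowest within a stage helped decide whether a unigene qualified, so the following counts are a description of values the rule used. S1 replicate 1 was the highest S1 library for 102 of 200 members (51%), against 39.5% of tested unigenes. S2 replicate 2 was the highest in S2 for 92 members (46%, against 34.4%), and S3 replicate 2 in S3 for 74 (37%, against 27.4%). S3 replicate 3 was the lowest of its stage for 93 members (46.5%, against 34.3%). These are counts over unigenes of the same libraries, which are not independent.

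The order of the stages was also counted in libraries that had no part in the choice. The rule was applied to 2 libraries a stage, and the 200 unigenes so chosen were looked up in the 3 libraries left out. These carry the same number but are not known to be paired fruits. Each choice gave another 200, of which 93, 145 and 141 were members when replicates 1, 2 and 3 were left out. With replicate 2 left out, 168 of 200 were in the order S1, S2, S3 in the left-out libraries, and with replicate 3 left out 169 were, against 19.9 and 17.9% of 30038 tested unigenes outside the study's lists. With replicate 1 left out the count was 108, against 16.1%. These are counts over unigenes of the same 3 libraries, which are not independent, and they do not describe the 200 members as a set. The median steps in the left-out libraries were 1.08 and 1.39 for replicate 2, 1.02 and 1.28 for replicate 3, and 0.48 and 1.51 for replicate 1, where the medians of all tested unigenes were between -0.03 and 0. With replicate 1, 60 of the 200 failed on the first step alone and 27 on the second alone. The first step of unigenes chosen on the other replicates was thus smaller in the replicate 1 libraries.

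**Figure D4:**
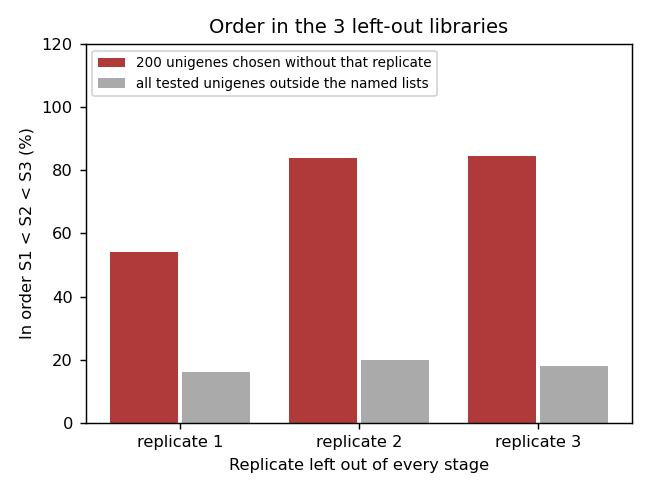
Percentage of unigenes in the order S1 below S2 below S3 in the 3 libraries left out of the choice, for the 200 unigenes chosen without that replicate (red) and for all tested unigenes outside the study's lists (grey). The red bars stand at 54, 84 and 84.5%, and the grey ones at 16.1, 19.9 and 17.9%.

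Stages were compared over all unigenes with limma on log2(FPKM + 1), for the 30201 that reached 1 FPKM in 3 or more libraries, and a call is a Benjamini-Hochberg adjusted p under 0.05. Of all tested unigenes, 1.01% were called higher in both steps, 7.24% higher from S1 to S2, 23.3% higher from S2 to S3 and 22.1% higher in S3 than in S1. Of the members, 145 were called in both steps, 149 in the first, 192 in the second and 200 between S1 and S3. The same contrasts chose the members, so nothing is read from these counts. The 145 became 92, 86 and 91 without S2 replicates 1, 2 and 3, where 0.434, 0.401 and 0.421% of all tested were called. They became 78 when each step also had to reach 1 on the log2 scale, where 0.268% of all tested were called.

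Trinity groups assembled sequences that share stretches into clusters, which the DN and c numbers of an identifier name, and the g number counts the unigenes within one. Unigenes of a cluster can be copies of one gene, related genes or pieces of one transcript. The members came from 191 clusters, of which 9 held 2 members, and 96 members (48%) were alone in their cluster, against 39.3% of tested unigenes. Clusters of 100 members also held 178 unigenes that are not members and whose values the rule did not pick, called sisters here.

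Most sisters called between harvest and the last stage were higher at the last. Of 116 tested sisters, 57 (49.1%) were called higher in S3 than in S1 and 10 (8.62%) lower, where 22.1 and 25.4% of all tested unigenes were. The tested sisters lay in 73 clusters, of which 47 held a sister called higher and 10 held one called lower. Sisters of one cluster are not independent. From S2 to S3, 44 sisters rose and 13 fell, and from S1 to S2, 14 rose and 9 fell, beside 23.3 and 23.2% and 7.24 and 10.7% of all tested. Over S1 to S3 their median log2 fold was 0.80, against -0.05 over all tested unigenes. The full order of the stages held in 17 tested sisters (14.7%) and in 2.86% of the tested unigenes that are not members. Sisters share sequence with a member, so reads may have been divided between them, and the part of this in the counts was not tested. When only unigenes that reached 5 FPKM in 3 or more libraries were kept, 33 of 65 tested sisters were called higher (50.8%, against 28.9% of all tested). Some sisters reached 1 FPKM in S3 libraries only and so were tested only through the stage where they are high. The limit of 5 FPKM can be passed in the same way. TRINITY_DN18351_c0_g2, for example, had at most 0.11 FPKM in S1 and S2 libraries and 11.2, 10.6 and 6.02 in S3. The part of these in the counts was not tested. With every unigene above 0 in any library kept, 62 of 177 sisters were called higher (35.0%, against 12.4% of all).

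Single sisters went both ways. Those named here were picked for the size of their change from S1 to S3, so their p-values are a description and no support. TRINITY_DN2161_c1_g2 had 12.7, 8.2 and 4.58 FPKM in S1, 14.5, 17.6 and 12.4 in S2 and 112, 235 and 292 in S3. Its log2 fold between S1 and S3 was 4.48 (standard error 0.40, limma adjusted p = 6.18e-05). TRINITY_DN6708_c0_g6 had at most 0.07 FPKM in S1 and 0.37 in S2, and 13.9, 12.9 and 12.4 in S3, which put its rise in the second interval (log2 fold 3.47). It reached 1 FPKM in S3 libraries only, and so was tested only through the stage where it is high. The opposite was seen in TRINITY_DN3437_c0_g2, with 22.9, 83.1 and 66.6 FPKM in S1, 57.2, 47.6 and 62.5 in S2 and 5.24, 5.61 and 3.1 in S3. Between S1 and S3 it fell by 3.22 in log2 (standard error 0.43, limma adjusted p = 4.52e-04).

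Both other unigenes of that last cluster are members. TRINITY_DN3437_c0_g1 had 19.9, 16.9 and 17.5 FPKM in S1, 34.6, 33.9 and 26.2 in S2 and 48.2, 59.7 and 68.7 in S3. TRINITY_DN3437_c0_g3 had 0, 0.59 and 0, then 2.28, 4.61 and 2.49, then 18.6, 5.81 and 14.4 FPKM. The cluster thus held 2 rising unigenes and 1 falling one, and in S3 the falling one was below both members in every library, most narrowly in S3 replicate 2 with 5.61 against 5.81 FPKM.

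Pairs of members in one cluster did not keep a fixed ratio. TRINITY_DN4078_c1_g3 and TRINITY_DN4078_c1_g2 had nearly the same level in S2, with 3.96, 6.72 and 5.22 against 4.4, 6.49 and 6.56 FPKM. In S3 they had 68.3, 77.2 and 104 against 20.6, 17.7 and 22.7 FPKM, so that the ratio of the first to the second went from 0.796 at the lowest to 4.58 at the highest. The closest ratio over the S2 and S3 libraries was that of TRINITY_DN4395_c0_g4 to TRINITY_DN4395_c0_g3, 0.696 to 0.939. In TRINITY_DN10937_c0, the levels were higher, with 34.6, 47.3 and 21.5 FPKM in S2 and 51, 92.5 and 88.6 in S3 for g4, and 46.1, 49.7 and 29.4, then 122, 181 and 192, for g2. S2 replicate 3 was the lowest S2 library in both of these.

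TRINITY_DN1793, a DN number that joins several such clusters, held the most members, 6 of its 14 unigenes, and was singled out after its values were seen. All 6 were low. TRINITY_DN1793_c4_g3, the highest, had 0.61, 0 and 1.22 FPKM in S1, 2.27, 3.47 and 3.63 in S2 and 19.2, 20.1 and 11.96 in S3. TRINITY_DN1793_c1_g2 had 0.24, 0.98 and 1.12, then 4.38, 4.03 and 4.19, then 7.87, 10.97 and 11.1 FPKM. The other 4 members averaged 3.6 to 7.0 FPKM in S3.

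The 8 other unigenes of TRINITY_DN1793 did not follow one course. TRINITY_DN1793_c1_g4 stayed between 55.0 and 61.3 FPKM in all 9 libraries (log2 fold of 0.02 between S1 and S3, standard error 0.08, limma adjusted p = 0.83). TRINITY_DN1793_c3_g1 had 0.85, 1.52 and 1.31 FPKM in S1 and 5.62, 5.21 and 11.4 in S2 and is listed at 0 in every S3 library. Of the 8, 4 were called higher at S3 than at harvest and 1 lower, where 22.1 and 25.4% of all tested unigenes were. Nothing is read from so small a count in a DN number picked by its values. One of the 4 was TRINITY_DN1793_c2_g1, which went from 6.66 ± 2.45 to 22.2 ± 3.06 FPKM (SD, n = 3), with limma adjusted p = 9.46e-04.

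**Figure D5:**
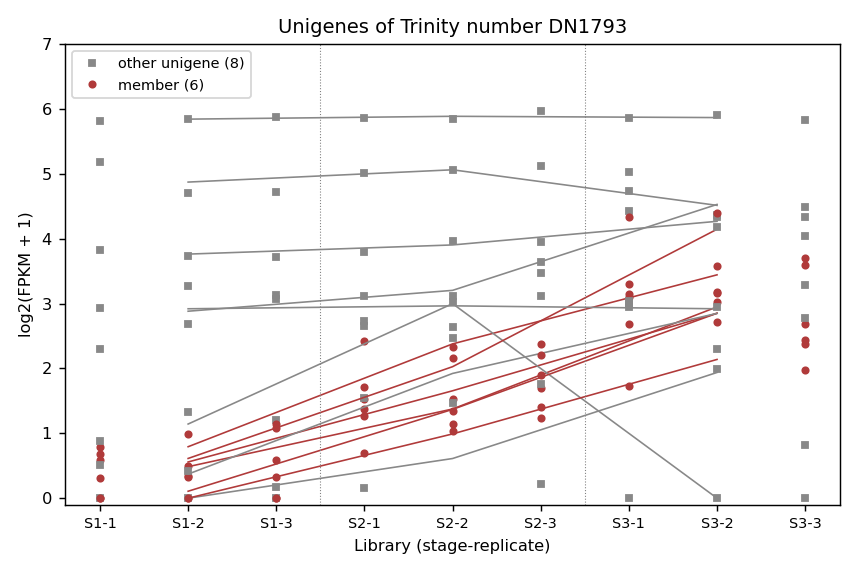
log2(FPKM + 1) in each of 9 libraries for the 14 unigenes of TRINITY_DN1793, with 6 members as red circles and 8 others as grey squares and lines that join the stage means. The top grey line is TRINITY_DN1793_c1_g4, at 55.0 to 61.3 FPKM throughout, and the 6 members have at most 1.22 FPKM in any S1 library.

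No member had a name in the study's list of flavonoid genes without identifiers, whose entries were matched through their 9 values under any order of the stages. Among the 165 named unigenes that the rule set aside, 163 were tested and 9 of these were in the same full order (5.52%, against 3.51% of all tested unigenes). In 5 the smaller step was at least as large as that of the last member (3.07% of the 163, where the 200 members are 0.666% of the tested unigenes outside the lists). The study picked these lists on the same libraries, so their share is no independent evidence. The 5 were a bHLH, a WRKY, a Dof, a bZIP and a MYB factor, 1 of each family, and their values are a description with no test. These factors bind DNA and raise or lower the reading of other genes, WRKYs being known from defence and senescence and bZIPs from abscisic acid and sugar signalling in other plants.

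The bHLH FSG0093660 (TRINITY_DN3317_c3_g1) had the largest smaller step of the 5, 1.04, with 15.3, 16.9 and 11.8 FPKM in S1, 21.7, 42.0 and 32.3 in S2 and 122, 93.4 and 65.2 in S3. The WRKY FSG0105690 (TRINITY_DN7191_c0_g1) had 0.99, 0.86 and 0.82 FPKM in S1, 4.02, 2.47 and 1.2 in S2 and 22.4, 30.0 and 30.4 in S3. The bZIP FSG0266940 (TRINITY_DN4526_c1_g1) had 15.0, 19.2 and 24.1, then 43.3, 35.6 and 31.6, then 84.5, 63.6 and 47.5 FPKM. The S2 libraries of the WRKY spread over more than a 3-fold range, and those of the bZIP kept closer.

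The MYB FSG0186350 (TRINITY_DN1483_c0_g1) had 8.54, 11.4 and 9.23 FPKM in S1, 30.6, 12.6 and 12.6 in S2 and 79.3, 120 and 123 in S3. The Dof of TRINITY_DN10628_c0_g1 had 0.04, 0.19 and 0.06 FPKM in S1, 2.3, 0.2 and 0.86 in S2 and 2.46, 9.81 and 11.4 in S3. Its S1 and S2 libraries all but met, at 0.19 and 0.2 FPKM. In the WRKY, the Dof, the bZIP and the MYB, S2 replicate 1 was the highest S2 library. The same was so for 49 of the 200 members (24.5%, against 28.0% of tested unigenes). SeUGT10 (TRINITY_DN4670_c0_g2), a UDP-glycosyltransferase gene of the kind that adds sugars to flavonoids, was in the same order below the limit, with 31.3, 25.9 and 27.4 FPKM in S1, 53.6, 62.8 and 59.1 in S2 and 112, 103 and 66.9 in S3.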

How the data were processed

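RNA-seq of 9 chayote fruit libraries, 3 a stage, was analysed from FPKM, which the authors deposited to 2 decimals for each unigene after filtering reads with fastp. The sources used here name no mapper, counting tool or scaling. The S1 replicate 1 table also has 8 columns with no heading, filled in 1 line only, which were not used. Samples were grouped by the stage in their labels. The members, lists and tests were chosen with earlier results of these data known.

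The rule and its counts were computed with Python 3.11.15 (numpy 2.4.6, pandas 2.3.3, matplotlib 3.10.9). limma 3.58.1 in R 4.3.3 (lmFit, and eBayes with trend) fitted all 9 libraries on log2(FPKM + 1), with Benjamini-Hochberg adjustment over 30201 unigenes, and was tested on simulated data. The study names a T-test in general and no tool for its DEGs. Lists came from the study's supplementary names. Of 95 flavonoid genes without identifiers, 2 matched no unigene by their values. Alternatives were median-of-ratios and quantile scaling, pseudocounts of 0.1 and 0.01, other filters, no trend, a replicate block, 6-library fits, stricter calls and each library left out.

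The named members are the 5 with the largest smaller step, the highest S3 mean and the largest difference from S1 to S3, the last inside the limit, and those of clusters with 2 members, of which only some are printed. Named outside are the listed factors in the same order and the sisters that changed most, not all printed. TRINITY_DN8632_c0_g1, TRINITY_DN4395_c0_g4 and its pair, TRINITY_DN8417_c0_g2 and the TRINITY_DN1793 unigenes were added after their values were seen. No sequences of unigenes are in the files used here, so none is shown.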

Additional observations from a re-analysis of the deposited data

How the results depend on the processing

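Median-of-ratios and quantile scaling chose 190 and 178 of the 200 members again, while pseudocounts of 0.1 and 0.01, which weigh low unigenes more, chose 114 and 93. Leaving out each library in turn, 131 to 185 members were chosen again, 1281 to 1994 unigenes qualified, 121 to 518 were called higher in both steps against 306 with all libraries, and 86 to 149 members were. The extremes came from S1 replicate 1 (131, 1994, 518 and 149), S3 replicate 2 (185 and 1281) and S2 replicate 2 (121 and 86). Calls in both steps over all unigenes were 189 with any value above 0, 196 with the replicate block, 81 when each step also had to reach 1 in log2 and 78 with adjusted p below 0.01, and of the members 78 and 65 under the last 2. Of 116 tested sisters, 3 were called in both steps (2.59%, against 1.01% of all tested), 0 without S2 replicate 3, 8 without S1 replicate 1 (6.90%, against 1.72%), and 0 with the fold limit or the stricter p, while 8 were at an unadjusted p under 0.05 in limma, where 2.25% of all tested were. Sisters called higher in S3 than in S1 were 57 of 116, and 33 of 65 with the filter at 5 FPKM (49.1 and 50.8%, against 22.1 and 28.9% of all tested). Either filter can be passed through S3 libraries alone. Of each 200 chosen anew on 2 libraries a stage, 108 to 169 were in order in the left-out replicate. Same-numbered libraries gave no sign of deviating together (r of -0.14 to 0.04 over 9 pairs, and -0.10 to 0.12 for differently numbered ones). With so few libraries a stage, this cannot show whether fruits were paired by number. With the block, 124 of the members were called in both steps and 57 sisters were higher in S3 than in S1 (49.1%, against 20.3% of all tested). The smaller step of the 25 named members moved by less than 1 SD in 297 recomputed values and by more in 28. All 28 came with another pseudocount, 14 of 25 with 0.1 and 14 of 25 with 0.01. The sign of the smaller step turned in 0, but the full order of the stages fixes that sign when a library is left out or the pseudocount changed. With a library left out, a move of over 1 SD could not occur, since that SD was taken within the stages of the same libraries. Some of the 297 did not move at all, since the library left out had no part in the smaller step. These values are therefore no test of the rise. The files give no reads per unigene, so values under about 1 FPKM carry an unknown counting error.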
